A study of Mus musculus with 4 samples.

Results

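Integrins are the adhesion receptors with which T cells hold on to other cells and to the matrix, and the transcripts of 10 integrin chains were examined here in splenic regulatory T (Treg) cells with and without Nsd2. The chains were Itgae, Itgb7, Itga4, Itgb1, Itgal, Itgb2, Itgav, Itgb8, Itga6 and Itgb3. They were taken by gene name from the deposited tables, with the transcript of highest mean for each gene. All 10 were found among 14193 genes with a name. All 10 also passed the filter, a mean of 1 RPKM or more (RPKM are reads divided by the transcript's length and the library's depth), which left 10688 genes to test.

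RNA was profiled in 4 libraries of Treg cells sorted from the spleens of mice of the strain C57BL/6. There were 2 libraries from wild-type mice (WT) and 2 from mice with a Nsd2 conditional knockout in Treg cells (cKO). Nsd2 encodes a histone methyltransferase that acts on lysine 36 of histone H3. RNA of 3 or more mice was mixed for every library, so the p-values given here measure the spread between pools, which may be partly technical. The labels give no Cre driver, deleted exons, littermate status, age or sex, and it is not known from them whether the WT mice carried a Cre or floxed allele. Both groups share the strain, the organ and the sort, whose markers are not given in the labels.

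An integrin is a pair of 1 alpha and 1 beta chain, and a chain reaches the cell surface only once it has found a partner. Beta chains are shared: the beta 7 chain pairs with alpha 4 to bind MAdCAM-1 in gut vessels, and with alpha E (CD103) to bind E-cadherin on epithelia, while beta 1 pairs with many alpha chains that bind matrix proteins. Alpha L and beta 2 form LFA-1, which binds ICAM-1 and steadies the contact between a T cell and the cell it meets, and alpha V with beta 8 frees active TGF-beta from its latent form. CD103 is known as a marker of a subset of effector-like Treg cells and of T cells that stay in epithelia, and TGF-beta is known to induce its gene.

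The libraries held 19086000 to 21201000 reads, as estimated from the steps between low values. Nsd2 (listed as Whsc1) measured 6.82 and 7.44 RPKM in the WT pools against 3.46 and 4.27 RPKM in the cKO pools, with a cKO mean at 54.2% of WT. It was lower in both cKO libraries, a pattern shown by 9.06% of all genes, and did not pass the test described below. The 10 T and Treg cell markers summed to 1457 and 1516 RPKM (WT) and 1497 and 1590 RPKM (cKO), and Foxp3 lay between 113 and 145 RPKM. B cell markers (6 of 10 listed in the tables) summed to 8.59, 7.04, 11.98 and 11.2 RPKM in WT replicates 1 and 2 and cKO replicates 1 and 2. Myeloid and dendritic cell markers (14 of 15) summed to 9.14, 13.9, 26.5 and 8.37 RPKM in the same order. Erythroid markers (6 of 10) were at 24.7, 11.5, 43.4 and 7.46 RPKM, and platelet markers (4 of 10) at 2.33, 1.86, 1.97 and 1.67 RPKM. Neutrophil and mast cell markers (2 of 10) lay between 0.358 and 0.549 RPKM. In bulk RNA, fewer cells of a type and less RNA per cell cannot be told apart.

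The most abundant chain was beta 7. Itgb7 was read at 302 and 253 RPKM in WT libraries, compared with 328 and 238 RPKM in cKO libraries, its mean being above that of 98.9% of the genes tested. The beta 2 and alpha L chains of LFA-1 came next, with 4-library ranges of 175 to 213 RPKM for Itgb2 and 155 to 187 RPKM for Itgal. These ranges overlapped, but Itgb2 exceeded Itgal in all 4 libraries by 1.10 to 1.15-fold. A middle group held Itga4 (46.6 to 66.7 RPKM), Itgb1 (48.8 to 60.5 RPKM) and Itga6 (39.5 to 47.6 RPKM). Itga4 and Itgb1 did not differ in level beyond their spread, and Itga4 was the higher of the pair in 2 of 4 libraries. Below them were Itgae (14.8 to 28.8 RPKM) and Itgb3 (16.0 to 20.8 RPKM), whose order also held in 2 of 4 libraries. Itgav (7.83 to 9.29 RPKM) and Itgb8 (4.89 to 5.65 RPKM) were the lowest of the 10. Every other step in the order, from Itgb7 over Itgb2, from Itgal over Itga4, from Itgb1 over Itga6, from Itga6 over Itgae, from Itgb3 over Itgav and from Itgav over Itgb8, was seen in all 4 libraries with no overlap of the ranges. Itgae alone had a second transcript (13.8 to 26.3 RPKM), so its place in this order rests on keeping 1 of them. With the transcripts of each gene summed, the mean log2(RPKM + 1) was 5.36 for Itgae, 5.50 for Itga6 and 4.27 for Itgb3. The summed Itgae was below Itga6 in both WT libraries but above it in both cKO libraries, and above Itgb3 in every library. The margin over Itga6 was narrow in cKO replicate 2, where the Itgae transcripts were at 25.4 and 22.7 RPKM and Itga6 at 47.6 RPKM.

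**Figure D1:**
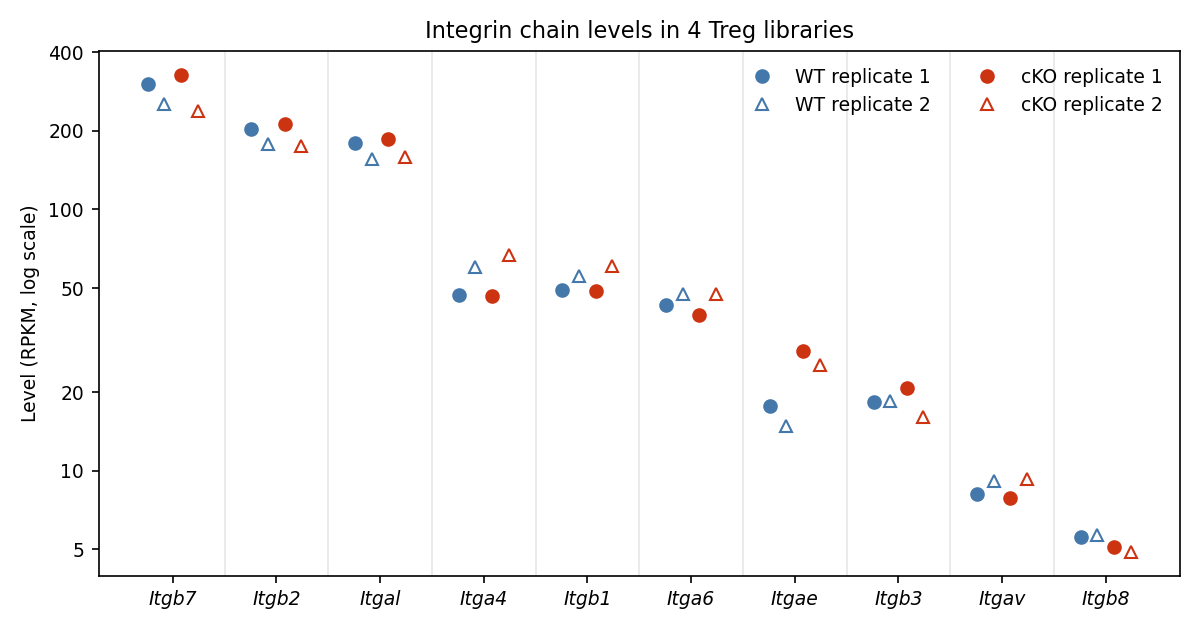
Level of each integrin chain in RPKM on a log axis, with 1 point per library for the 2 WT and 2 cKO libraries. Itgb7, Itgb2 and Itgal lie above 150 RPKM in every library, and Itgae is the chain whose cKO points stand clearly above its WT points.

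The start regions of Itga4, Itgb1 and Itgb7 are shown because alpha 4 pairs with either beta chain, while the levels of the chains differed between libraries in opposite directions. They are the 250 bases before the start that the RefSeq table of GRCm38.p6 gives for each gene, printed in the direction of the gene. For Itgb7 that start is not the outer end of the gene's annotated span (chromosome 15, 102215994 to 102233405), so its bases lie inside the span. Of the 10 chains, 5 had a start region in the RefSeq table used. They lie at chr2:79255176-79255425 on the plus strand for Itga4, at chr8:128685404-128685653 on the plus strand for Itgb1 and at chr15:102231936-102232185 on the minus strand for Itgb7. Capitals mark matches on either strand to GGGCGG (the GC box letters of Sp factors) and TGTGGT (the core letters bound by Runx factors), the latter read as ACCACA on the other strand.
Itga4: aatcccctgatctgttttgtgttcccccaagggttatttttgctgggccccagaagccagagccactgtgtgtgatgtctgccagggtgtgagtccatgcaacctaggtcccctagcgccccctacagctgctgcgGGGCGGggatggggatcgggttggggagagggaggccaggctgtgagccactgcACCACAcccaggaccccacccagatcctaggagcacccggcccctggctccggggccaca
Itgb1: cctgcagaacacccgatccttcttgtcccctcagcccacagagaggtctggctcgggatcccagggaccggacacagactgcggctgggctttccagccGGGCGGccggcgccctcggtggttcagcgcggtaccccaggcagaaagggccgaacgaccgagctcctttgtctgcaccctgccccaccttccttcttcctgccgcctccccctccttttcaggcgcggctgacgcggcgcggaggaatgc
Itgb7: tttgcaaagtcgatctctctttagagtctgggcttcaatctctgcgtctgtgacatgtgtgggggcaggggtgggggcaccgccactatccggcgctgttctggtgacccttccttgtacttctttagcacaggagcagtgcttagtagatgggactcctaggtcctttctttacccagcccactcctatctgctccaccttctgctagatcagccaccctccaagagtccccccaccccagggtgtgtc
Itga4 held 1 GGGCGG and 1 ACCACA, Itgb1 held 1 GGGCGG, and Itgb7 held neither. Of 32851 start regions of this length, 32.7% held GGGCGG and 14% held TGTGGT on either strand, so these matches are common letters and not known sites. CCGGAA, the core letters of Ets factors, was in none of the 3 and in 12% of all. The GC content of the start region was 64% for Itga4, 68% for Itgb1 and 56% for Itgb7, beside a median of 52.4%. The start of Itga4 was thus GC-rich although its transcript was the second lowest of the 10 chains in GC content, after Itgb8 at 40.4%.

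No integrin chain passed the test of cKO against WT. The test was limma on log2(RPKM + 1) over all 10688 genes with Benjamini-Hochberg adjustment at 0.05, and it called 0 of 10 chains, against 0% of all genes. At an unadjusted p under 0.05 it held 1 of the 10 chains (Itgae) and 332 of all genes, where a uniform spread of p would give 534. Nsd2, the gene knocked out, did not pass either (log2 difference -0.74, unadjusted p = 0.00305 and adjusted p = 0.9998 by limma). The log2 differences of the chains were above 0 for 6 and below 0 for 4, with a median of 0.02 beside 0.03 over all genes, and the signs of Itgb7, Itgal and Itgb2 turned under median-of-ratios scaling of the libraries. The cKO libraries were both above the WT libraries for 1 of 10 chains (Itgae), a pattern shown by 17.4% of all genes, and both below for 1 of 10 (Itgb8), a pattern shown by 9.06% of all genes. The shares of separated chains were thus near those of genes in general. A difference on this scale understates the change of genes near 1 RPKM.

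Itgae, the alpha E chain (CD103; GRCm38 chromosome 11, 73090505 to 73147449), had the largest difference of the 10. It had WT values of 17.7 and 14.8 RPKM and cKO values of 28.8 and 25.4 RPKM. The cKO pair was high and the WT pair low, with no overlap. The WT mean was 16.3 ± 2.04 RPKM and the cKO mean 27.1 ± 2.38 RPKM (SD, n = 2 per genotype), a ratio of 1.67. The log2 difference was 0.70 with a standard error of 0.14 (95% interval 0.35 to 1.06, or 1.27 to 2.08-fold). Within replicate number 1 it was 0.67, and within replicate number 2 it was 0.74. The limma test gave an unadjusted p of 0.00307, the 25th lowest of all genes, and an adjusted p of 0.9998, so the difference did not pass. It passed under 1 alternative, chosen after seeing the data, which took the replicate number as a block and corrected each library for GC content and length (0.73, limma adjusted p = 0.00721). The replicate block alone gave an adjusted p of 0.0637.

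Among all genes tested, 0.964% had a log2 difference at least as large as that of Itgae in either direction. A second Itgae transcript in the tables measured 16.1 and 13.8 RPKM in the WT pools against 26.3 and 22.7 RPKM in the cKO pools. It also separated by genotype, but since how reads were divided between the transcripts of a gene was not stated, it is no separate measurement. Haspin, a kinase of mitosis, lies inside the span of Itgae on the opposite strand (chromosome 11, 73135484 to 73138294), with 0 exon bases shared. Haspin was read at 7.22 and 4.92 RPKM in WT libraries, compared with 9.51 and 7.04 RPKM in cKO libraries, and its groups overlapped (log2 difference 0.40). No source used here states whether reads were counted by strand.

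CD103 is also carried by some dendritic cells and CD8 T cells, so their markers were set beside it. Xcr1, the chemokine receptor of cross-presenting dendritic cells, lay between 0.188 and 0.265 RPKM in all 4 libraries, and Itgax (CD11c) was at or below 0.0584 RPKM. The summed myeloid and dendritic list given above was highest in cKO replicate 1 and lowest in cKO replicate 2. Cd8a had WT values of 0.149 and 0.253 RPKM and cKO values of 0.336 and 0.395 RPKM, while Cd8b1 measured 6.91 and 6.49 RPKM in the WT pools against 5.22 and 6.31 RPKM in the cKO pools. The first of these CD8 chains was higher in both cKO libraries and the other lower. Ccl5, a chemokine of CD8 T and NK cells, had WT values of 7.22 and 4.71 RPKM and cKO values of 8.41 and 11.8 RPKM (log2 difference 0.68, unadjusted p = 0.0308 and adjusted p = 0.9998 by limma). It was the 1 gene of the 5 tested from this list with an unadjusted p under 0.05. Like Itgae it was higher in both cKO libraries, a pattern shown by 17.4% of all genes. Of the 5 tested, 3 had log2 differences above 0 and 2 below, Cd8b1 and Prf1. Prf1 was at 4.12 and 5.80 RPKM (WT) and 4.23 and 3.66 RPKM (cKO). The CD8 T and NK cell list (8 of 10) summed to 32.4, 27.1, 31.4 and 36.4 RPKM in WT replicates 1 and 2 and cKO replicates 1 and 2. B cell markers were higher in both cKO libraries, as Itgae was. The part of any of these cell types in the Itgae difference was not tested. Cd79b, the largest contributor to that list, was read at 5.56 and 4.23 RPKM in WT libraries, compared with 8.03 and 7.14 RPKM in cKO libraries.

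The genes whose pattern over the 4 libraries was nearest to that of Itgae were sought among 8363 genes averaging 4 RPKM or more, by the root mean square distance of log2(RPKM + 1) after subtracting each gene's mean. They were Snord49b (distance 0.036), Mgat4b (0.053), Ankrd13b (0.065), Zbtb32 (0.073) and Tk1 (0.081). With 4 libraries this is a description of shape and nothing more. Mgat4b, an enzyme that branches N-glycans, had WT values of 3.50 and 2.88 RPKM and cKO values of 5.80 and 4.92 RPKM. Zbtb32, a zinc finger repressor of lymphocytes, measured 4.13 and 3.30 RPKM in the WT pools against 7.21 and 5.43 RPKM in the cKO pools. Both genes, like Itgae, were highest in cKO replicate 1 and lowest in WT replicate 2, a likeness that their choice by distance favours.

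**Figure D2:**
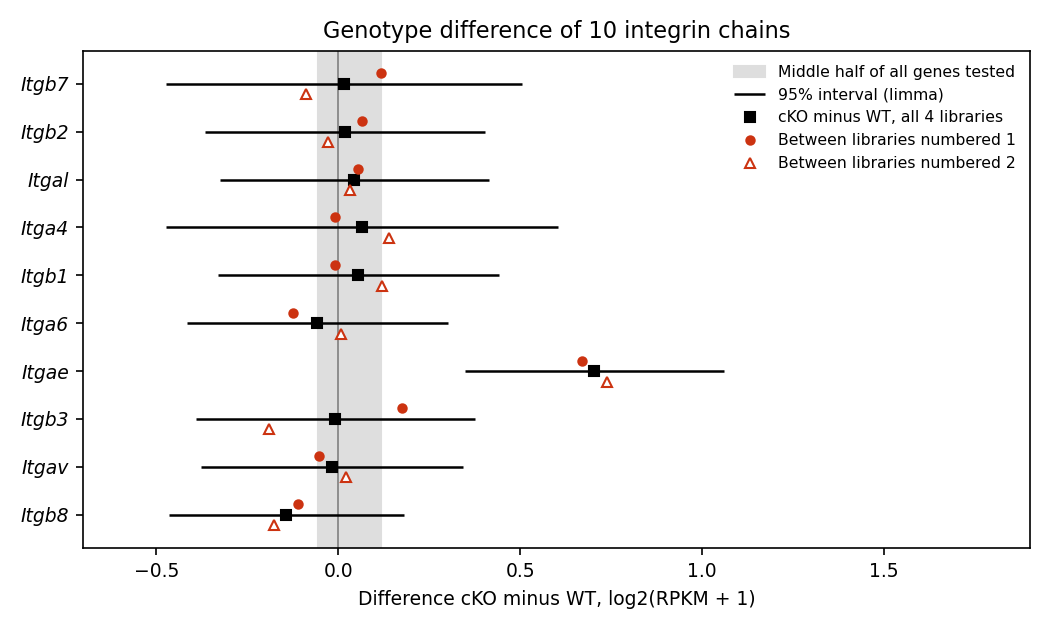
Log2 difference of cKO minus WT for each of the 10 integrin chains, with the 95% interval of the limma fit, beside the values within the libraries numbered 1 and those numbered 2. The Itgae interval, 0.35 to 1.06, is the 1 interval of the 10 that does not reach 0.

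Itgb7, the partner of alpha E, and Itga4, the other alpha chain that pairs with it, did not separate by genotype. Itgb7 (chromosome 15, 102215994 to 102233405) averaged 277.5 ± 35.0 RPKM over the WT and 283.0 ± 64.0 RPKM over the cKO libraries (SD, n = 2). Its cKO libraries were the highest and the lowest of the 4, and the interval of the difference ran from 0.720 to 1.42-fold (log2 difference 0.02, limma adjusted p = 0.9998). Itga4 (chromosome 2, 79255426 to 79333114), the alpha chain of both gut-homing and VCAM-1-binding integrins, was read at 46.9 and 60.4 RPKM in WT libraries, compared with 46.6 and 66.7 RPKM in cKO libraries. It was low in both libraries numbered 1 and high in both numbered 2, and the genotypes overlapped (0.721 to 1.52-fold, limma adjusted p = 0.9998). Cerkl, a gene on the opposite strand, shares 346 exon bases with the end of Itga4, and had WT values of 4.75 and 7.10 RPKM and cKO values of 5.17 and 8.05 RPKM. Reads of Itga4 and Cerkl in that overlap cannot be told apart without strand.

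Itgb1 (chromosome 8, 128685654 to 128733579), the beta chain shared by the matrix receptors, measured 49.2 and 55.6 RPKM in the WT pools against 48.8 and 60.5 RPKM in the cKO pools. Like Itga4, it was higher in both libraries numbered 2. Itga6 (chromosome 2, 71786886 to 71858427), the laminin-binding alpha chain that pairs with beta 1 in lymphocytes, was read at 43.2 and 47.3 RPKM in WT libraries, compared with 39.5 and 47.6 RPKM in cKO libraries. Its number 2 libraries were again the higher ones, and the genotypes overlapped. The intervals of the cKO to WT difference were 0.795 to 1.36-fold for Itgb1 and 0.749 to 1.23-fold for Itga6. Differences inside these intervals are compatible with the values of the 2 libraries a group.

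The LFA-1 chains did not separate by genotype either. Itgal (chromosome 7, 127296139 to 127335137) had WT values of 179.5 and 155 RPKM and cKO values of 187 and 159 RPKM. Itgb2 (chromosome 10, 77530329 to 77565708) measured 203 and 178 RPKM in the WT pools against 212.5 and 175 RPKM in the cKO pools. Both chains were high in the libraries numbered 1 and low in those numbered 2. The cKO to WT intervals were 0.798 to 1.33-fold for Itgal and 0.776 to 1.32-fold for Itgb2.

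Of the alpha V family, Itgb8 was the second chain with separated groups, at a small size. Itgb8 (chromosome 12, 119162803 to 119238276), whose product with alpha V activates latent TGF-beta, was read at 5.58 and 5.65 RPKM in WT libraries, compared with 5.09 and 4.89 RPKM in cKO libraries. Both cKO libraries were below both WT libraries, averaging 4.99 ± 0.141 RPKM against 5.61 ± 0.0513 RPKM (SD, n = 2), a ratio of 0.889. The log2 difference was -0.14 with a standard error of 0.13 (0.724 to 1.13-fold, limma adjusted p = 0.9998), which did not pass. With each library corrected for GC content and length, it shrank to -0.058. By length and depth, cKO replicate 1 held the fewest Itgb8 reads, 821, for a counting error of 3.49%, which leaves out the spread between pools.

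Itgav (chromosome 2, 83722303 to 83806917), the alpha V chain, had WT values of 8.16 and 9.14 RPKM and cKO values of 7.83 and 9.29 RPKM. It was higher in both libraries numbered 2, and its genotypes overlapped (0.771 to 1.27-fold). Itgb3 (chromosome 11, 104608000 to 104670476), the beta chain of the vitronectin receptor and of the platelet fibrinogen receptor, measured 18.3 and 18.4 RPKM in the WT pools against 20.8 and 16.0 RPKM in the cKO pools. Its WT libraries lay between its cKO libraries (0.762 to 1.30-fold). Itga2b, the platelet partner of beta 3, lay between 0.534 and 0.954 RPKM, so the beta 3 transcript exceeded that of its platelet partner in every library.

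Chains that can pair were next compared within each library, as the RPKM of the alpha chain over that of the beta chain. This compares transcript levels per length and not protein. Each ratio has 4 values, so the smallest two-sided p of an exact permutation test is 0.333, and none of the 8 pairs could pass. The ratio of Itgae to Itgb7 was 5.86% and 5.87% in the WT libraries and 8.77% and 10.7% in the cKO libraries. The WT libraries were nearly equal and both cKO libraries were higher, by 1.66-fold in the mean (exact permutation p = 0.333, adjusted 0.889 over 8 pairs). These percentages use the kept Itgae transcript alone. The log2 difference of this ratio was 0.72, and 0.71 with the Itgae transcripts summed. The ratio of Itga4 to Itgb7 was 15.5% and 23.9% in WT and 14.2% and 28.1% in cKO. It followed the replicate number and not the genotype, being higher in both libraries numbered 2.

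Itgae and Itga4, the 2 alpha chains that share beta 7, summed to 64.6 and 75.2 RPKM (WT) and 75.4 and 92.1 RPKM (cKO). Itgb7 exceeded that sum in every library, by 4.68 and 3.36-fold in WT and by 4.35 and 2.58-fold in cKO. Itgae made up 27.4% and 19.7% of the alpha sum in WT and 38.2% and 27.6% in cKO. These sums and shares count the kept Itgae transcript alone, without the second. Within each replicate number the cKO share was the higher one, while WT replicate 1 and cKO replicate 2 were about equal.

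The LFA-1 pair was the most even of the 8 across libraries. Itgal over Itgb2 was 0.883 and 0.873 in WT and 0.878 and 0.910 in cKO, a 4-library spread of 1.04-fold. Both chains differed between replicate numbers in the same direction, which leaves their ratio flat. Itga4 over Itgb1 was 0.954 and 1.09 in WT and 0.955 and 1.10 in cKO, higher in both libraries numbered 2.

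Beta 1 had 2 further alpha partners among the 10. Itga6 over Itgb1 was 0.878 and 0.851 in WT and 0.810 and 0.787 in cKO, and Itgav over Itgb1 was 0.166 and 0.165 in WT and 0.160 and 0.154 in cKO. Both ratios were lower in both cKO libraries, at 0.923 and 0.950 of the WT mean (exact permutation p = 0.333 and adjusted 0.889 for each). They share the Itgb1 values and are not independent. Itgav over Itgb3 was 0.446 and 0.497 in WT and 0.376 and 0.580 in cKO, and Itgav over Itgb8 was 1.46 and 1.62 in WT and 1.54 and 1.899 in cKO. In both of these the libraries numbered 2 were higher, and Itgav was above Itgb8 and below Itgb3 in every library.

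**Figure D3:**
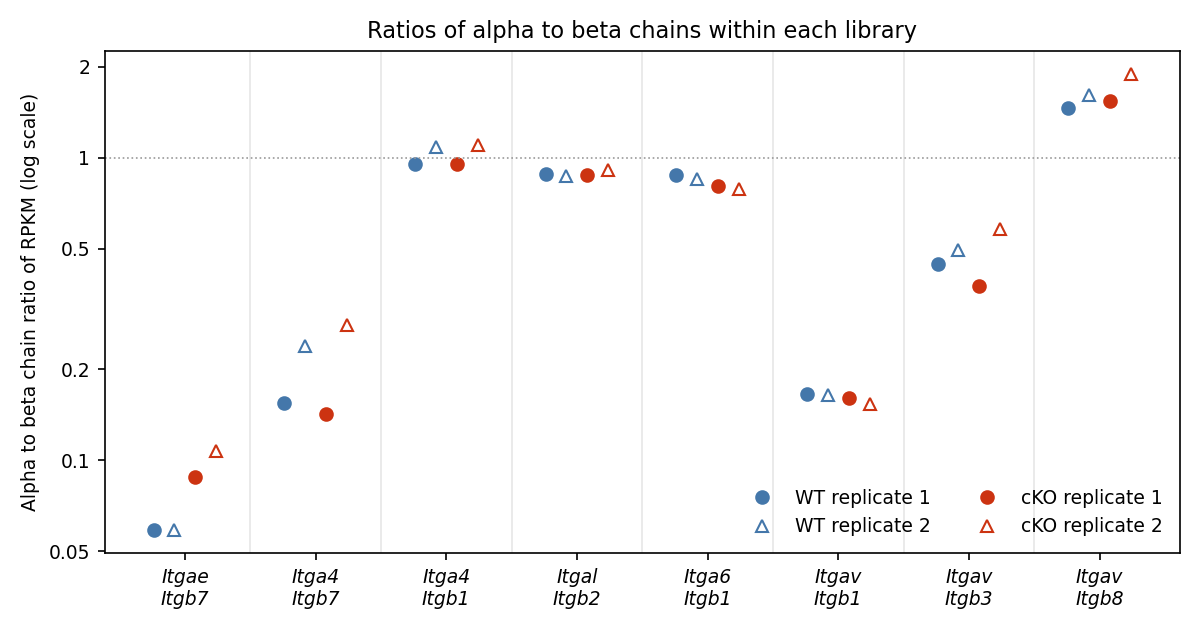
Ratio of alpha to beta chain RPKM within each library for 8 pairs that share a receptor, on a log axis, with 1 point per library. The WT points of Itgae to Itgb7 coincide at 5.86% and 5.87% and its cKO points stand at 8.77% and 10.7%, while the Itgal to Itgb2 points stay within 1.04-fold of each other.

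Most chains separated by replicate number and not by genotype. The libraries numbered 2 were both above those numbered 1 for 4 of 10 chains (Itga4, Itgb1, Itga6 and Itgav), against 32% of all genes, and both below for 3 of 10 (Itgb7, Itgb2 and Itgal), against 28.9% of all genes. These shares were near those of genes in general. Itga4 was 1.29-fold higher in number 2 than in number 1 in WT and 1.43-fold higher in cKO. Itgb7 moved the other way, with the number 2 library at 0.836 of number 1 in WT and 0.724 in cKO. Itgae, Itgb3 and Itgb8 were not separated by number. Itgae was nonetheless lower in number 2 within each genotype, by log2 differences of -0.24 in WT and -0.17 in cKO, which on average (-0.21) is close to Itgal (-0.22) and Itgb2 (-0.24).

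Among the 7 chains that split, the direction went with the base composition of the transcript. The GC content was 41.1% for Itga4, 43.6% for Itgav, 44.9% for Itgb1 and 48.9% for Itga6, the 4 chains that were higher in number 2. It was 53.1% for Itgb2, 53.2% for Itgal and 58.0% for Itgb7, the 3 that were lower. Itgb8, the chain of lowest GC content (40.4%), did not follow: its mean log2 difference between numbers was -0.016, where the 2010 genes of lowest GC content had a median of 0.28 and a lower quartile of 0.17. Itgae (-0.21), Itgb3 (-0.18) and Itga6 (0.20) also lay outside the quartiles of genes of similar GC content. Those quartiles were -0.084 and 0.095 for the 2015 genes at 48.6% to 52.4%. Narrowly outside theirs were also Itga4 (0.43, upper quartile 0.39), Itgb1 (0.24, upper quartile 0.22) and Itgb7 (-0.36, lower quartile -0.34). Itgal (-0.22) and Itgb2 (-0.24) were just below a lower quartile of -0.20. Itgav (0.18) alone lay within its quartiles, and quartiles by definition leave out many genes. Over the 10 chains the Pearson correlation of GC content with the log2 difference between numbers was -0.83, and over 10049 genes it was -0.73. These are descriptions over genes that share the same 4 libraries. The mitochondrial ribosomal RNA mt-Rnr2 was read at 196 and 372 RPKM in WT libraries, compared with 214 and 383 RPKM in cKO libraries, and so also went with the number. The labels do not say what the numbers stand for.

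GC content was also weakly related to the genotype difference across genes (Pearson correlation 0.18 over 10049 genes). The median log2 difference of cKO minus WT was 0.03 among the 2015 genes with a GC content of 48.6% to 52.4%, which include Itgae at 51.4%, and 0.06 among the 2006 genes of highest GC content. With each library corrected for GC content and length, a choice made after seeing the data, the Itgae difference was 0.73 (limma adjusted p = 0.124).

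**Figure D4:**
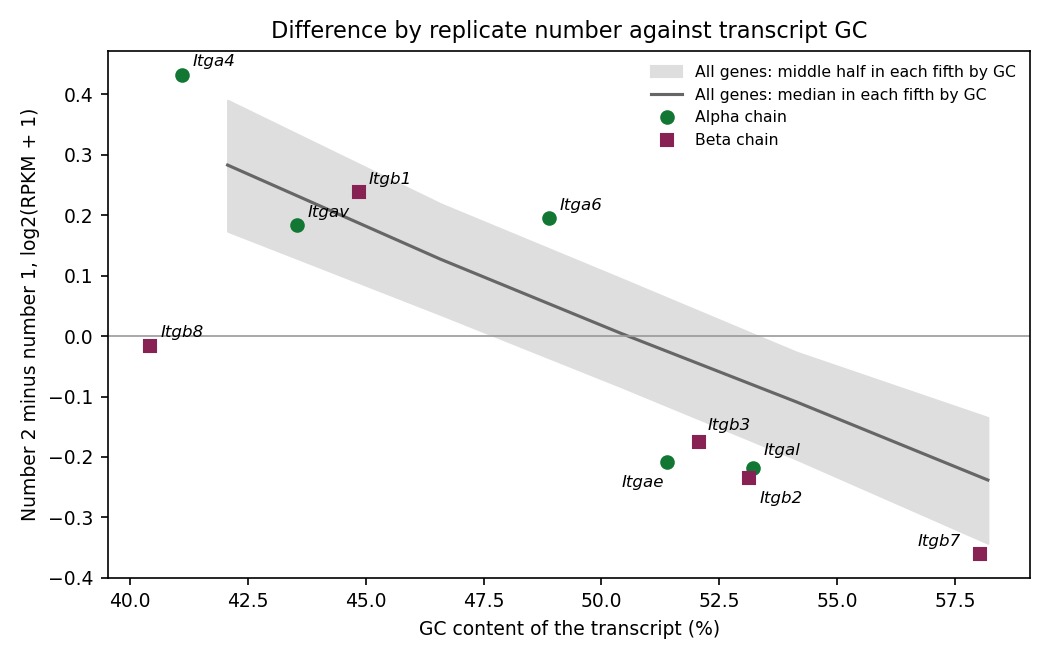
Mean log2 difference of number 2 minus number 1 libraries against transcript GC content in percent, for the 10 chains (named) and for all genes with a GC value. Itga4 at 41.1% GC lies highest of the chains and Itgb7 at 58.0% GC lowest, along the slope of the other genes, while Itgb8 at 40.4% GC lies near 0.

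Of 17 other integrin chains listed, 15 were in the tables and 3 passed the filter of 1 RPKM, with 0 called by limma and 0 at an unadjusted p under 0.05. Itga5, the fibronectin receptor alpha chain, had WT values of 2.85 and 2.54 RPKM and cKO values of 3.28 and 2.78 RPKM. Itga3 measured 1.84 and 1.60 RPKM in the WT pools against 2.40 and 1.93 RPKM in the cKO pools. Itga10 was at 1.43 and 1.48 RPKM (WT) and 1.32 and 0.839 RPKM (cKO). Both cKO libraries were above both WT libraries for Itga3 and below them for Itga10, while Itga5 overlapped. The other 12 chains had means under 1 RPKM.

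Of 28 integrin ligands and counter-receptors, 20 were in the tables and 11 were tested, with 7 log2 differences above 0, 4 below, a median of 0.02 (0.03 over all genes) and 0 called (0 at an unadjusted p under 0.05, limma). Thy1, a surface glycoprotein that beta 2 and beta 3 integrins can bind, was read at 234.5 and 233 RPKM in WT libraries, compared with 278 and 285 RPKM in cKO libraries. Both cKO libraries were above both WT libraries (ratio 1.203, unadjusted p = 0.0711 and adjusted p = 0.9998 by limma). Tgfb1, whose latent product alpha V integrins bind, had WT values of 100.5 and 94.6 RPKM and cKO values of 104.5 and 92.0 RPKM, and its groups overlapped. Cd47, which binds integrins from the side, measured 64.2 and 64.5 RPKM in the WT pools against 66.4 and 69.1 RPKM in the cKO pools. It too was higher in both cKO libraries, by a narrow gap.

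Of 62 genes of integrin activation and of the adhesion complex, 53 were tested, with 31 log2 differences above 0, 22 below, a median of 0.01 and 0 called (0 at an unadjusted p under 0.05, limma). The 4 of lowest p were Cd9, Tgfb1i1, Rapgef6 and Rasgrp1, a choice that favours genes with separated groups. Among the 53 genes tested, 8 were higher in both cKO libraries, against 17.4% of all genes. A further 5 were lower in both, against 9.06% of all genes. Cd9, a tetraspanin that associates with integrins, was read at 22.01 and 23.0 RPKM in WT libraries, compared with 28.0 and 27.1 RPKM in cKO libraries. Tgfb1i1 (Hic-5), a paxillin relative at focal adhesions, had WT values of 3.29 and 3.49 RPKM and cKO values of 2.84 and 2.11 RPKM. Both separated by genotype, in opposite directions, with log2 differences of 0.28 and -0.34. Rapgef6, an exchange factor for Rap1, measured 60.6 and 64.5 RPKM in the WT pools against 44.1 and 59.6 RPKM in the cKO pools. Rasgrp1, an exchange factor for Ras, was at 55.9 and 58.5 RPKM (WT) and 59.9 and 72.8 RPKM (cKO). Rapgef6 was lower and Rasgrp1 higher in both cKO libraries, each by a narrow gap.

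Of 30 genes of the TGF-beta pathway and of transcription factors that act on Itgae, 26 were tested, with 12 log2 differences above 0, 14 below, a median of -0.01 and 0 called (0 at an unadjusted p under 0.05, limma). The 4 of lowest p were Tgfbr2, Runx1, Satb1 and Tgif1, a choice that favours genes with separated groups. Tgfbr2, the ligand-binding receptor, was read at 60.8 and 71.2 RPKM in WT libraries, compared with 55.1 and 55.1 RPKM in cKO libraries. Runx1, a Runx-family transcription factor, had WT values of 20.3 and 21.3 RPKM and cKO values of 18.8 and 16.9 RPKM. Satb1, a chromatin organiser of T cells, measured 52.5 and 60.8 RPKM in the WT pools against 47.7 and 50.1 RPKM in the cKO pools. For Tgfbr2, Runx1 and Satb1 both cKO libraries lay below both WT libraries, whereas Itgae lay above. Tgif1, a repressor that binds Smad proteins, was read at 18.0 and 18.3 RPKM in WT libraries, compared with 14.5 and 17.2 RPKM in cKO libraries, and was also lower in both cKO libraries. None of these 4 differences passed the test (limma adjusted p = 0.9998 for each). Of the 26 genes tested, 5 were lower in both cKO libraries, against 9.06% of all genes. Prdm1 was the 1 gene higher in both, against 17.4% of all genes. Its values were 3.84 and 3.54 RPKM (WT) and 4.34 and 3.98 RPKM (cKO).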

How the data were processed

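RNA-seq of 4 libraries was analysed, 2 WT and 2 cKO, grouped and numbered by the labels. Per the labels' protocols, each library mixed RNA of at least 3 mice and was read as 50 nt single ends. The authors deposited RPKM values per RefSeq transcript; the unit was read from the values, as no header names it. Per the submitters' processing notes, the tools were HISAT2 and DESeq2 and the build mm10, with neither a version nor a role given. Neither the counting tool nor its use of strand is given in the sources used here.

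Of 19291 transcripts, 16720 had an accession in the RefSeq gene table and 1402 more a known name. The 1169 unmatched ones held 10.9% of the RPKM sum and were left out. For each gene the transcript of highest mean was kept, and the 10688 genes averaging 1 RPKM or more entered limma 3.58.1 under R 4.3.3, a two-sided test of log2(RPKM + 1) with a mean-variance trend and robust moderation. Gene spans come from RefSeq GRCm38.p6, and GC content and length from GENCODE M21 transcripts. Depth was estimated from whole-read steps among 748 to 903 low values per library, of which 63.1% to 69.8% lay within 0.1 of a whole read. The depth had been chosen to maximise a cosine score of closeness to whole reads, so that share partly restates the choice. The fit was tested on simulated data.

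The 10 chains and all gene lists were chosen with earlier results of these data known. The rule for named genes took Nsd2, the 10 chains, up to 4 other chains by level, 3 ligands of highest mean, 4 genes of lowest p from each of the 2 other lists, and the 5 genes nearest to Itgae. Markers, overlapping genes and mt-Rnr2 were named outside it. Alternatives were the pseudocount, the filter, the scaling, the block, summed transcripts and left-out libraries. Figures were drawn with matplotlib 3.10.9 (Python 3.11.15, pandas 2.3.3), and exact tests used scipy 1.17.1.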

Additional observations from a re-analysis of the deposited data

How the results depend on the processing

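Itgae was higher in cKO under every alternative run. Its log2 difference ranged from 0.58 to 0.83 with 1 library left out (limma adjusted p from 0.0543 to 1), and 0 of 10 chains were called in those fits. Over all genes, 0 were called, but 21 to 66 were with 1 library left out (66 without WT replicate 1 and 38 without replicate 2; 21 without cKO replicate 1 and 60 without replicate 2); the lone library of a group is then assumed to vary like the others. With a replicate block 1 gene was called and Itgae had an adjusted p of 0.0637. Same-numbered libraries deviated together (r = 0.51 across 10688 genes), but 2 pairs without a label for what the number means do not establish a pairing. Correction for GC content and length, chosen after seeing the data, called 0 genes (Itgae adjusted p = 0.124, 862 genes at an unadjusted p under 0.05). Together with the replicate block it called 79 genes, 51 higher and 28 lower, and 1 chain, Itgae (0.73, adjusted p = 0.00721); the cause was not tested. Differences of 8 chains changed sign: under median-of-ratios scaling, Itgb7 was -0.032, Itgal -0.0025 and Itgb2 -0.029; under the GC and length correction, with and without the replicate block, Itgb7 was -0.015, Itgav 0.048 and Itgb3 0.035. Leaving out 1 library gave log2 differences from -0.22 to 0.25 for Itgb7, -0.070 to 0.16 for Itgal, -0.12 to 0.16 for Itgb2, -0.19 to 0.32 for Itga4, -0.096 to 0.21 for Itgb1, -0.13 to 0.094 for Itgav, -0.19 to 0.073 for Itga6 and -0.19 to 0.17 for Itgb3. Chain ratios also turned with 1 library left out: the log2 difference ran from -0.44 to 0.54 for Itga4 to Itgb7, -0.093 to 0.11 for Itga4 to Itgb1, -0.32 to 0.30 for Itgav to Itgb3 and -1.3e-05 to 0.30 for Itgav to Itgb8. With 2 pools a group, differences of the size of those in the 10 chains, Itgae included, were not detected in the main fit.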
